A study of Mus musculus with 5 samples.

Results

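MHC class I molecules display peptides from inside the cell to CD8 T cells, and nearly every nucleated cell carries them. The genes described here are the parts of that route: the heavy chains H2-K1 and H2-D1, their light chain B2m, the peptide transporter subunits Tap1 and Tap2, the tapasin gene Tapbp, the inducible proteasome subunits Psmb8, Psmb9 and Psmb10, and Nlrc5, the transactivator of class I genes. These 10 genes were chosen by name from the 19061 gene rows of each library, and all 10 passed the filter on low reads that left 14414 genes for testing. Interferon is the best known inducer of the set: it brings in the immunoproteasome, whose subunits replace constitutive catalytic subunits and shift the peptides that are cut, while NLRC5 binds class I promoters together with RFX, CREB and NF-Y factors. Cardiomyocytes at rest carry little class I compared with endothelium and leukocytes.

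The libraries were made from hearts of C57BL/6 mice that carry a calcineurin transgene, at postnatal day 158. The MHC of the line's name, MHC-CnATg, stands for myosin heavy chain, whose alpha promoter drives the transgene in cardiomyocytes, and has nothing to do with the histocompatibility genes. The vehicle group had 2 libraries, and the JIB-04 group, dosed at 50 mg/kg, had 3. Vehicle and JIB-04 were both given 3 times a week from an age of 4 weeks. JIB-04 inhibits histone demethylases of the Jumonji family. Both groups carried the transgene, and no heart without it was in the comparison. One title, that of JIB-04 replicate 3, writes the transgene's short name in another way, while its genotype label is that of the other libraries. Whether every library came from its own animal is not spelled out in the labels, so p-values measure only the spread between these libraries, which may be technical.

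Depth was 32152168 to 37002846 recovered reads per library, and 1 read was worth 0.0268 to 0.0326 CPM, the scaled read value of the deposited files. Cardiomyocyte markers were present as a heart sample should have them, with all 10 in the files, none at 0 and a summed level of 88847 to 118302 CPM. In limma's fit 0 of the 14414 genes passed an adjusted p of 0.05 in either direction.

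Of the 10 class I and immunoproteasome genes, all had positive log2 fold changes (JIB-04 minus vehicle), against 46.9% of all genes tested. The median was 0.35, against -0.01 over all genes tested. In 8 of the 10, every JIB-04 library was above both vehicle libraries, which 10.7% of all genes tested did. The opposite order, all JIB-04 values under the vehicle values, was seen in 0 of the 10 and in 12% of all genes tested. None passed limma's adjusted threshold (0% of all genes tested were called in that direction), and the smallest adjusted p was 0.371. At an unadjusted p under 0.05 limma had 7 of the 10 higher and 0 lower, against 3.93% and 2.51% of all genes tested. edgeR and limma-voom on the recovered reads also called 0 of the 10, each with 7 higher at an unadjusted p under 0.05, against 4.28% and 3.61% of all genes. DESeq2 called 4 of the 10 higher, H2-K1, H2-D1, Psmb8 and Nlrc5, where it called 0.481% of all genes it tested higher and 0.113% lower. Its unadjusted p was under 0.05 for 6 of the 10, all higher, and for 3.82% of all genes in that direction. Without JIB-04 replicate 1 limma called 0.187% of all genes higher and 0 of the 10.

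The promoters of the genes are shown first because several of them carry the same sites. RefSeq windows of 250 bases before to 50 after the start site (GRCm38.p6, the build of the files) were at hand for 8 of the 10 genes, and for each the window at the start site of the file's row was taken. They were searched on both strands for the core of the interferon stimulated response element (GAAANNGAAA), the gamma activated site (TTCNNNGAA), the NF-kappa-B motif, TGACG (the core of the cyclic AMP response element, to which CREB and ATF proteins bind) and CCAAT, the NF-Y site. The bases before the start site are printed 5′ to 3′ on the gene's strand, with each match in capitals. A match on the other strand reads reversed, so ATTGG is CCAAT and CGTCA is TGACG.
H2-K1, chr17:34000334-34000583, minus strand: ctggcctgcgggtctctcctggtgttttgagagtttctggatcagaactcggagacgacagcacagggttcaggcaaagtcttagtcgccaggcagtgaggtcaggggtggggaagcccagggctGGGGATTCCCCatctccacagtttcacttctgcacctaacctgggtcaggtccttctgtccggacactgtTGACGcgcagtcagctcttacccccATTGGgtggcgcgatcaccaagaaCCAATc
H2-D1, chr17:35262844-35263093, plus strand: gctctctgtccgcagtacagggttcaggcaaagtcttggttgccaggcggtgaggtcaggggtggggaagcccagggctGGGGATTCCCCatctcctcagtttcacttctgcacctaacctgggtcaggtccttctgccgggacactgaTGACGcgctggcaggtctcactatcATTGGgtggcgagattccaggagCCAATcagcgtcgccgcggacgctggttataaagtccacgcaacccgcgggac
B2m, chr2:122147437-122147686, plus strand: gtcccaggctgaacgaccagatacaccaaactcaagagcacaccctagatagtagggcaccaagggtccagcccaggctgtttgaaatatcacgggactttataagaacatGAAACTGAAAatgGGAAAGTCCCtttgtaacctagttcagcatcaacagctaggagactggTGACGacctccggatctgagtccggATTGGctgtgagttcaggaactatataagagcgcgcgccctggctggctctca
Tap1, chr17:34187306-34187555, plus strand: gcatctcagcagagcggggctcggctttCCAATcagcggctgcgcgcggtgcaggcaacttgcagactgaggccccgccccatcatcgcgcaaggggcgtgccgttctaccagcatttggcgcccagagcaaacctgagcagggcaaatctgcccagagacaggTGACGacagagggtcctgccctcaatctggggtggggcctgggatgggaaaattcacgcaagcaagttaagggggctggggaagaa
Psmb8, chr17:34197945-34198194, plus strand: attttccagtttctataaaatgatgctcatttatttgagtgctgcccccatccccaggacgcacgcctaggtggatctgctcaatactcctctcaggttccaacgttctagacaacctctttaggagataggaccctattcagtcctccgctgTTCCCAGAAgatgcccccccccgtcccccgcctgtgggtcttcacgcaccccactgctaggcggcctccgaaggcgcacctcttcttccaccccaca

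The promoters of H2-K1, H2-D1 and B2m, the genes of the assembled class I molecule, share the order NF-kappa-B motif, TGACG, reversed CCAAT. In all 3 the reversed CCAAT begins 25 bases after the first base of TGACG, and in H2-K1 and H2-D1 the NF-kappa-B motif begins 70 bases before TGACG, against 48 in B2m. TGACG and a reversed CCAAT at that spacing stood in 31 of 32851 promoter windows (0.0944%), and the spacing was read from these genes, so their own matches are a description. Among 16 other class I or class I-like genes with a window, H2-M3 also had it. Laid over each other at their TGACG sites, the printed H2-K1 and H2-D1 promoters were identical at 169 of 204 bases (82.8%). Singly, the NF-kappa-B motif was in 4.51% of all windows, TGACG in 20.8% and CCAAT in 37.4%, and all 3 together in 0.374%. Of the 16 other class I windows 5 also held all 3, those of H2-M2, H2-M3, H2-Q4, H2-Q7 and H2-T22.

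Matches to the core of the interferon response element were found in B2m, 139 bases before the start site, and in 3.44% of all windows. With a looser motif, GAANNGAAA, chosen after the first search, H2-K1 and H2-D1 each had a match on the other strand between the NF-kappa-B motif and TGACG, and 7.52% of all windows had one. Psmb8 held the gamma activated site on both strands 97 bases before its start, as did 8.30% of all windows on either strand. Tap1 and Psmb9 are divergent neighbours with 225 bases between their start sites, so their windows overlap over 275 of 300 bases and their TGACG and CCAAT matches are the same ones. The Tapbp window held CCAAT at 2 places and Psmb10 none of the searched letters. The matches name letters in a window, and no binding was measured.

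**Figure D1:**
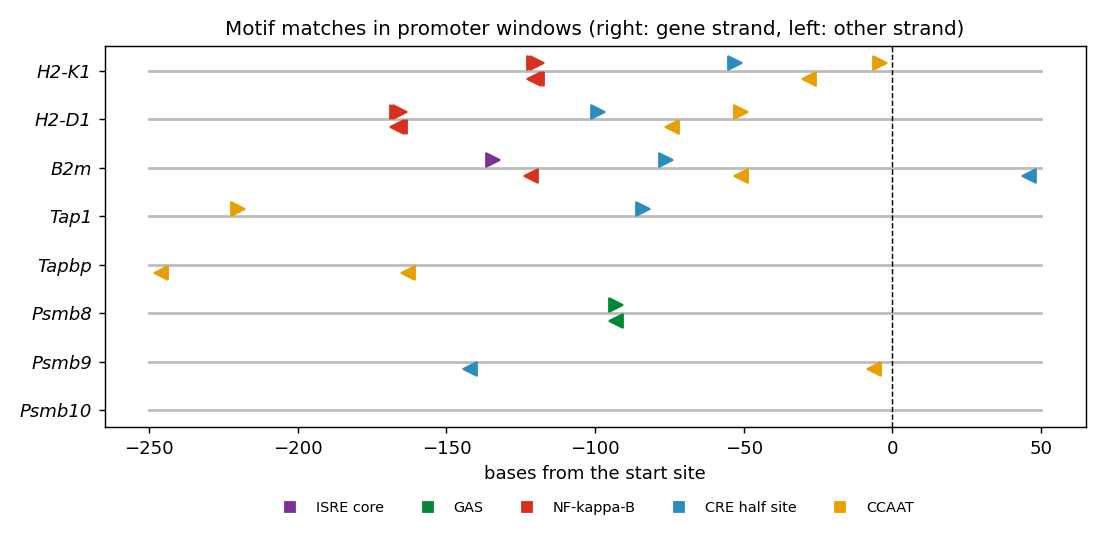
Positions of motif matches in the promoter windows of 8 genes, in bases from the start site (0, dashed line); triangles pointing right are on the gene's strand and those pointing left on the other strand, colours give the motif, and overlapping matches of the palindromic NF-kappa-B site are drawn on top of each other. H2-K1, H2-D1 and B2m show the same order of an NF-kappa-B match, TGACG and a reversed CCAAT, the last 2 at a distance of 25 bases.

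Among the heavy chains, H2-K1 (chr17:33996012-34000333, mm10, minus strand) was at 100.1 and 98.3 CPM in the vehicle libraries, against 132, 140 and 128 CPM under JIB-04 replicates 1, 2 and 3. The groups were apart by more than their own spread, and the mean was 1.35 times that of vehicle. Its log2 fold change on the log2(CPM + 1) scale was 0.42 (SE 0.06, 95% interval 0.27 to 0.57, limma adjusted p = 0.371, DESeq2 adjusted p = 4.16e-04). H2-D1 (chr17:35263094-35267497, plus strand), the second heavy chain, was at 119 and 111 CPM under vehicle and 144, 161 and 141 CPM under JIB-04. Here too no JIB-04 library came down to the vehicle values, with a ratio of means of 1.30 and a log2 fold change of 0.37 (SE 0.08, limma adjusted p = 0.455, DESeq2 adjusted p = 0.0405). Without vehicle replicate 1 or 2 and without any one JIB-04 library, the log2 fold change of H2-K1 stayed between 0.39 and 0.45.

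Heavy chain genes resemble each other, and reads that could come from several of them make their counts uncertain. Of the 50-base windows in GENCODE M21 transcripts of H2-D1, 13.9% were also found in transcripts of another gene, mainly H2-Q1 and H2-K1, and for H2-K1 it was 6.87%, mainly shared with H2-D1. H2-Q1 itself had at most 0.0269 CPM, the value of 1 read, in any library. The files also list a row named H2-L whose interval lies inside that of H2-D1 over 3608 bases. Its reads were 68.2% to 69.4% of those of H2-D1 in every library, so the 2 rows are not independent; as background, the H2-b haplotype of C57BL/6 has no H2-L gene.

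B2m (chr2:122147687-122153082, plus strand), the light chain without which heavy chains do not reach the cell surface, was at 247 and 258 CPM with vehicle, against 293, 348 and 294 CPM under JIB-04. All JIB-04 libraries were above vehicle, with JIB-04 replicate 2 well above the other two. The log2 fold change was 0.30 (SE 0.09, 95% interval 0.07 to 0.52, limma adjusted p = 0.721), and no tool called it. Patl2 lies over B2m on the opposite strand and had at most 0.0326 CPM, the value of 1 read, and whether counting used strand is not given in the sources used here. As a share of B2m within each library, H2-K1 was at 40.6% and 38.1% in vehicle and at 45.1%, 40.2% and 43.7% in JIB-04. These shares overlap between the groups, as do those of H2-D1 (43.1% to 48.0% in vehicle, 46.5% to 49.3% in JIB-04).

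**Figure D2:**
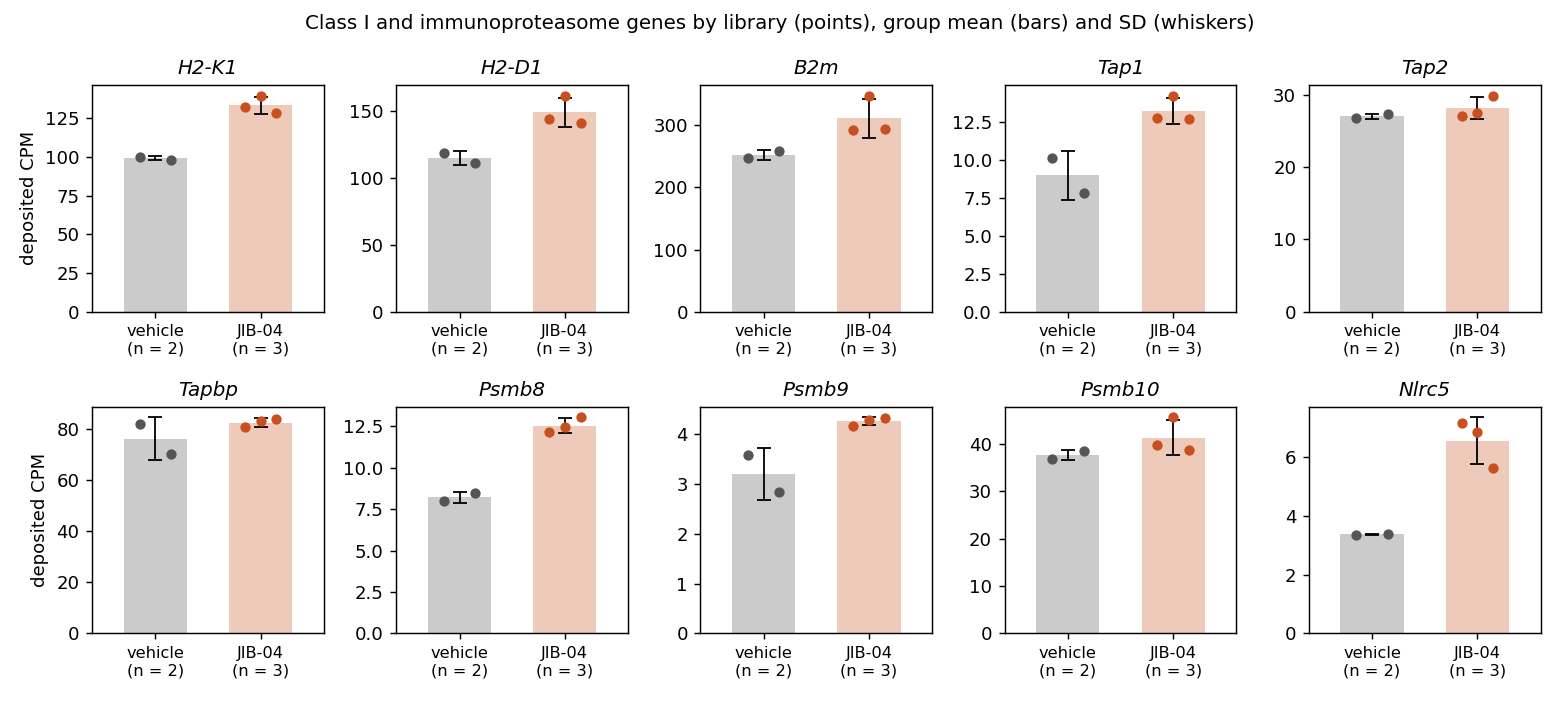
Deposited CPM of the 10 genes; points are libraries, bars are group means and whiskers are SD (vehicle n = 2, JIB-04 n = 3), with a separate vertical axis from 0 for each gene. The points of the groups overlap in Tap2 and Tapbp and are apart in the other 8 genes, with the widest relative distance in Nlrc5.

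The genes of the transporter had unlike values. Tap1 (chr17:34187556-34197225) was at 10.13 and 7.85 CPM under vehicle and 12.8, 14.3 and 12.7 CPM under JIB-04. The vehicle libraries were far apart, at 377 and 241 reads, yet both were below all JIB-04 libraries, which had 427 to 532 reads. Its log2 fold change was 0.52 (SE 0.13, limma adjusted p = 0.527), and it was 0.35 without vehicle replicate 2 and 0.69 without vehicle replicate 1. Tap2 (chr17:34204479-34216321), which encodes the partner in the same heterodimer, was at 26.7 and 27.3 CPM with vehicle, against 27.1, 27.5 and 29.8 CPM under JIB-04. The groups overlapped, and the log2 fold change of 0.06 (SE 0.07) had a 95% interval of -0.12 to 0.24 (limma adjusted p = 0.895). The difference between the log2 fold changes of the 2 genes was not tested.

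Tapbp (chr17:33919478-33929290) encodes tapasin, which holds an empty class I molecule at the transporter until a peptide binds. It was at 82.0 and 70.2 CPM under vehicle and 80.6, 82.9 and 83.8 CPM under JIB-04, so vehicle replicate 1 lay among the JIB-04 libraries. The log2 fold change was 0.12 (SE 0.08, 95% interval -0.07 to 0.31, limma adjusted p = 0.831), and 0.01 without vehicle replicate 2 against 0.23 without vehicle replicate 1.

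The inducible proteasome subunits had ratios of means between 1.10 and 1.53. Psmb8 (chr17:34198195-34201454), also called LMP7, was at 7.98 and 8.47 CPM with vehicle, against 12.1, 12.5 and 13.0 CPM under JIB-04. The groups were separate with little spread in either, a ratio of means of 1.53 and a log2 fold change of 0.55 (SE 0.09, 95% interval 0.34 to 0.77, limma adjusted p = 0.399, DESeq2 adjusted p = 0.00491). Psmb9 (chr17:34182099-34187330), or LMP2, was at 3.57 and 2.83 CPM in vehicle, from 133 and 87 reads, and at 4.17, 4.29 and 4.32 CPM under JIB-04. The JIB-04 libraries lay close together above both vehicle libraries, with a log2 fold change of 0.33 (SE 0.12, limma adjusted p = 0.748) that was 0.20 without vehicle replicate 2. Psmb10 (chr8:105935728-105938392), or MECL-1, was at 36.8 and 38.4 CPM under vehicle and 39.7, 45.5 and 38.7 CPM under JIB-04. It did not overlap between the groups, but JIB-04 replicate 3 was barely above vehicle replicate 2, and the log2 fold change was 0.13 (SE 0.09, 95% interval -0.08 to 0.34, limma adjusted p = 0.831), or 0.06 without JIB-04 replicate 2.

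**Figure D3:**
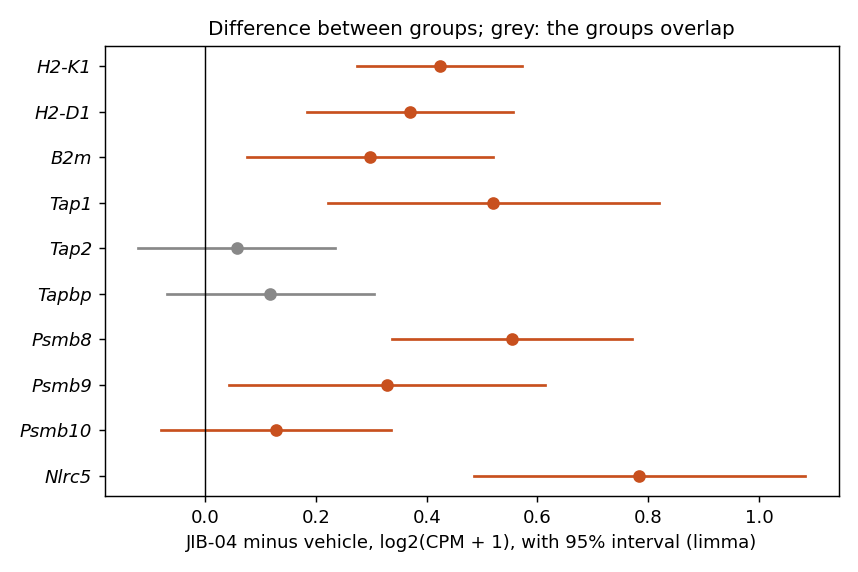
Log2 fold change (JIB-04 minus vehicle, on log2(CPM + 1), horizontal axis) of the 10 genes with its 95% interval from limma; orange marks genes whose groups do not overlap and grey those whose groups do. The intervals of Tap2, Tapbp and Psmb10 include 0, and the largest value is that of Nlrc5, at 0.78.

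Each inducible subunit takes the place of a constitutive one, Psmb8 that of Psmb5, Psmb9 that of Psmb6 and Psmb10 that of Psmb7, and the ratio within a library does not depend on library scaling. Psmb8 stood at 12.1% and 12.6% of Psmb5 in vehicle and at 16.8%, 18.0% and 20.5% in JIB-04. The groups were apart, with a difference of 0.57 on the log2 scale (two-sided exact permutation p = 0.1, the smallest that 10 splits allow, 0.15 adjusted over the 3 ratios). Psmb9 stood at 3.56% and 2.67% of Psmb6 in vehicle and at 4.08%, 4.25% and 4.22% in JIB-04, a difference of 0.44 (exact permutation p = 0.1, adjusted 0.15) that was 0.23 without vehicle replicate 2. Psmb10 stood at 29.7% and 29.4% of Psmb7 in vehicle and at 30.8%, 36.8% and 33.4% in JIB-04, a difference of 0.18 (exact permutation p = 0.2, adjusted 0.2) that was 0.12 without JIB-04 replicate 2. No vehicle library reached the ratio of any JIB-04 library in the 3 pairs, while the constitutive subunits overlapped between groups, with log2 fold changes of 0.04 for Psmb5, -0.02 for Psmb6 and -0.05 for Psmb7.

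**Figure D4:**
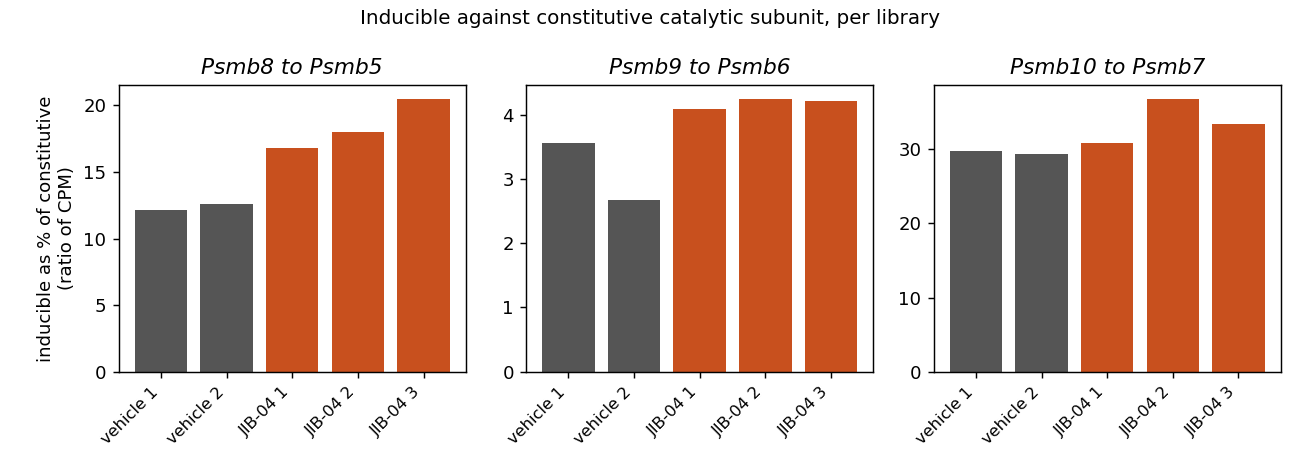
CPM of each inducible catalytic subunit as a percentage of the constitutive subunit it replaces, per library (bars from 0; grey vehicle, orange JIB-04). In each panel all 3 JIB-04 bars are above both vehicle bars, and relative to the height of the bars the step is smallest for Psmb10 to Psmb7.

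Nlrc5 (chr8:94472763-94527272), the transactivator itself, had the largest fold of the 10 genes at a low level. It was at 3.36 and 3.39 CPM with vehicle, against 7.17, 6.86 and 5.65 CPM under JIB-04, from 125 and 104 reads and from 239, 256 and 199 reads. The vehicle libraries agreed closely and every JIB-04 library was well above them, with a ratio of means of 1.95. The log2 fold change was 0.78 (SE 0.13, 95% interval 0.49 to 1.08, limma adjusted p = 0.399, DESeq2 adjusted p = 0.00216). On the reads, where no pseudocount lowers it, edgeR gave 0.97. With 2 vehicle libraries, their closeness for a single gene is a weak guide to the true spread.

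Per kilobase of exon (GENCODE M21 models within each row's interval), the order of mean levels was the same in both groups. In vehicle B2m led at 294 ± 9 CPM per kb (mean ± SD), followed by H2-D1 at 66.2 ± 3.0, H2-K1 at 60.4 ± 0.7, Psmb10 at 29.9 ± 0.9 and Tapbp at 27.7 ± 3.0. Tap2 was at 10.8 ± 0.2, Psmb8 at 6.72 ± 0.28, Psmb9 at 3.97 ± 0.65, Tap1 at 3.05 ± 0.55 and Nlrc5 at 0.450 ± 0.003 CPM per kb. Psmb10 and Tapbp overlapped in vehicle, and H2-D1 and H2-K1 in JIB-04, where they were at 85.8 ± 6.3 and 81.3 ± 3.5 CPM per kb. Tap1 and Psmb9 in vehicle did not overlap but were within their SDs of each other. Levels of the constitutive catalytic subunits in vehicle were 76.3 ± 1.1 (Psmb5), 129 ± 5 (Psmb6) and 131 ± 5 CPM per kb (Psmb7), so each exceeded its inducible counterpart in vehicle and in JIB-04.

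Outside the set, 19 of 25 other class I and class I-like genes in the files were tested, 16 with positive and 3 with negative values, a median log2 fold change of 0.26 and 0 past limma's threshold (3 at an unadjusted p under 0.05, 1 called by DESeq2). H2-T23, which encodes Qa-1, the ligand of the NKG2A receptor, was the one called by DESeq2, at 13.4 and 12.2 CPM under vehicle and 21.4, 19.1 and 19.3 CPM under JIB-04 (log2 fold change 0.60, SE 0.09, limma adjusted p = 0.371). Several of these rows share reads (H2-L with H2-D1, H2-T9 with H2-T22, H2-Q8 with H2-Q6 and H2-Q9 with H2-Q7). Without H2-L, H2-T9, H2-Q8 and H2-Q9 there were 15 tested, 12 of them positive, with a median of 0.17 and 2 at an unadjusted p under 0.05. H2-T22 was at 12.4 and 12.6 CPM against 15.1, 16.9 and 13.6 CPM, with nearly the same values in the overlapping H2-T9 row. The 3 negative values were those of Fcgrt, the neonatal Fc receptor (-0.11), Mr1 (-0.04) and Cd1d1 (-0.05). Their intervals from limma all included 0, and Cd1d1 had only 7 to 18 reads per library. Hfe, also a class I-like gene, had a positive value (0.08), and its groups overlapped too. Fcgrt, Mr1, Cd1d1 and Hfe were picked out after their values were seen.

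Of 17 transcription factors listed for class I promoters, 14 had positive values, with a median of 0.04, 0 past limma's threshold and 5 at an unadjusted p under 0.05. Those with the smallest p were Irf9 (17.1 and 16.4 CPM against 22.7, 22.8 and 23.9), Irf8 (8.33 and 6.41 against 11.6, 10.6 and 11.9) and Ciita, the class II transactivator (1.72 and 1.63 against 3.09, 2.28 and 4.49). DESeq2 called Irf9 alone of the 17. Irf1, an interferon induced activator of class I genes, was at 16.3 and 17.3 CPM with vehicle, against 18.4, 23.3 and 19.1 CPM under JIB-04 (log2 fold change 0.25, limma adjusted p = 0.815). Rfx5, a subunit of the RFX complex that NLRC5 joins at the promoter, was at 17.2 and 15.3 CPM against 16.6, 15.4 and 15.9, with overlapping groups.

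The remaining steps of the route had small values. Peptide trimming and loading helpers (13 of 13 tested, 9 positive) had a median of 0.07, proteasome activators (4 of 4 tested, 2 positive) 0.00, the other 20S core subunits (11 tested, 4 positive) -0.03 and the 20S assembly factors (5 tested, 2 positive) also -0.03, with 0 called by limma or DESeq2 and 0 at an unadjusted p under 0.05 in each. Erap1, which trims peptides in the endoplasmic reticulum, was at 37.1 and 35.7 CPM under vehicle and 39.7, 39.1 and 37.3 in JIB-04. Psme1 and Psme2 encode the PA28 activator, which interferon gamma induces with the immunoproteasome. Psme1 overlapped between the groups (39.0 and 39.9 CPM against 41.5, 37.4 and 41.2), and Psme2 was at 25.5 and 24.9 CPM against 25.7, 26.1 and 27.6 (log2 fold change 0.07). Of the interferons, their receptors, kinases and feedback genes 12 were in the files and 10 were tested, 6 of them positive, with a median of 0.04, 0 called by limma or DESeq2 and 2 at an unadjusted p under 0.05. Usp18, an interferon induced brake on the type I receptor, was at 3.44 and 3.42 CPM against 6.96, 5.20 and 4.21 CPM, and Socs3, which limits STAT3 signalling, at 6.66 and 4.49 against 7.50, 13.5 and 23.5 CPM. Of the listed interferon genes only Ifng and Ifnb1 were in the files, while Ifna1, Ifna2, Ifna4, Ifnl2 and Ifnl3 were not and could not be read. Ifng had 0.0537 CPM in vehicle replicate 1, the value of 2 reads, and none elsewhere. Ifnb1 had 1 read in JIB-04 replicate 1 and none elsewhere.

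Leukocytes carry much class I, and their summed markers were higher in every JIB-04 library. Macrophage and monocyte markers (19 of 20 in the files, none at 0) summed to 428 and 313 CPM in vehicle and to 442, 588 and 686 CPM under JIB-04. Of the 19, 17 had positive log2 fold changes and 2 negative ones, Cd163 (-0.11) and Mertk (-0.12). Limma called 0 of 19 and had 14 higher at an unadjusted p under 0.05, against 3.93% of all genes tested. DESeq2 called 6 higher, against 0.481% of all genes it tested. T and NK cell markers (13 of 16) summed to 3.95 and 3.58 CPM against 6.69, 5.41 and 5.51, and B cell markers (7 of 8) to 2.77 and 2.38 against 4.95, 3.51 and 3.32. Levels were low in both lists. Only 7 T and NK cell markers and 6 B cell markers passed the read filter, all with positive log2 fold changes. Of these, 2 and 0 were at an unadjusted limma p under 0.05, and limma and DESeq2 called 0. Among those not tested, Prf1 was lower in every JIB-04 library (0.188 and 0.130 CPM against 0.120, 0.107 and 0.057). Klrb1c, also not tested, was higher (0.107 and 0.130 CPM against 0.210, 0.214 and 0.170). Ptprc, the pan-leukocyte antigen CD45, was at 7.63 and 7.29 CPM against 13.3, 14.3 and 17.5. Endothelial markers (10 of 10), from cells that also carry class I, summed to 1169 and 1240 CPM against 1034, 1390 and 1261 and overlapped between groups. Fibroblast markers (10 of 10) summed to 4502 and 4175 CPM against 4396, 5473 and 5246, and red blood cell markers (10 of 10) to 7457 and 4876 against 1796, 3571 and 2616. The Hbb-b1 and Hbb-bs rows hold the same values in every library, so the red blood cell sum counts some reads more than once. Cardiomyocyte markers (10 of 10) summed to 104244 and 118302 CPM against 116072, 88847 and 105109 and overlapped between groups. Of these 10, 9 had negative log2 fold changes and 1 a positive one, with a median of -0.16 and 0 called by limma or DESeq2. In 3 of the 10 every JIB-04 library was below both vehicle libraries, against 12% of all genes tested. The part of these cells in the class I values was not tested, and in bulk tissue more cells of a type and more RNA per cell cannot be told apart.

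Library by library, leukocyte markers and the class I genes can be set side by side. Relative to the vehicle mean, the median of the 10 genes on the log2(CPM + 1) scale was 0.32, 0.47 and 0.32 for the 3 JIB-04 libraries in order of their numbers, and 0.00 for both vehicle libraries. For the 19 macrophage and monocyte markers the same median was 0.31, 0.76 and 0.94 for the JIB-04 libraries, and 0.19 and -0.19 for vehicle. In 12 of these 19 the lowest JIB-04 value exceeded the higher vehicle value, Ptprc and Cx3cr1 among them, against 10.7% of all genes tested. The summed level was 442 CPM in JIB-04 replicate 1 and 428 CPM in vehicle replicate 1. In that JIB-04 library 12 of the 19 markers were above both vehicle libraries, and the share of all genes was not computed for a single library. Cx3cr1 was at 6.42 against 3.79 CPM in vehicle replicate 1, and Ptprc at 13.3 against 7.63 CPM. Lower than in vehicle replicate 1 were Lyz2 (116 against 120 CPM), Cd163 (10.9 against 13.9 CPM), Mertk (7.26 against 9.08 CPM), Csf1r, Mrc1, C1qa and C1qc. T and NK cell and B cell sums were highest in JIB-04 replicate 1. Nlrc5 was highest in JIB-04 replicate 1, B2m and both heavy chains in replicate 2, and Psmb8 and Psmb9 in replicate 3. Of the 10 genes, 5 were highest in replicate 2, 4 in replicate 3 and 1 in replicate 1.

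**Figure D5:**
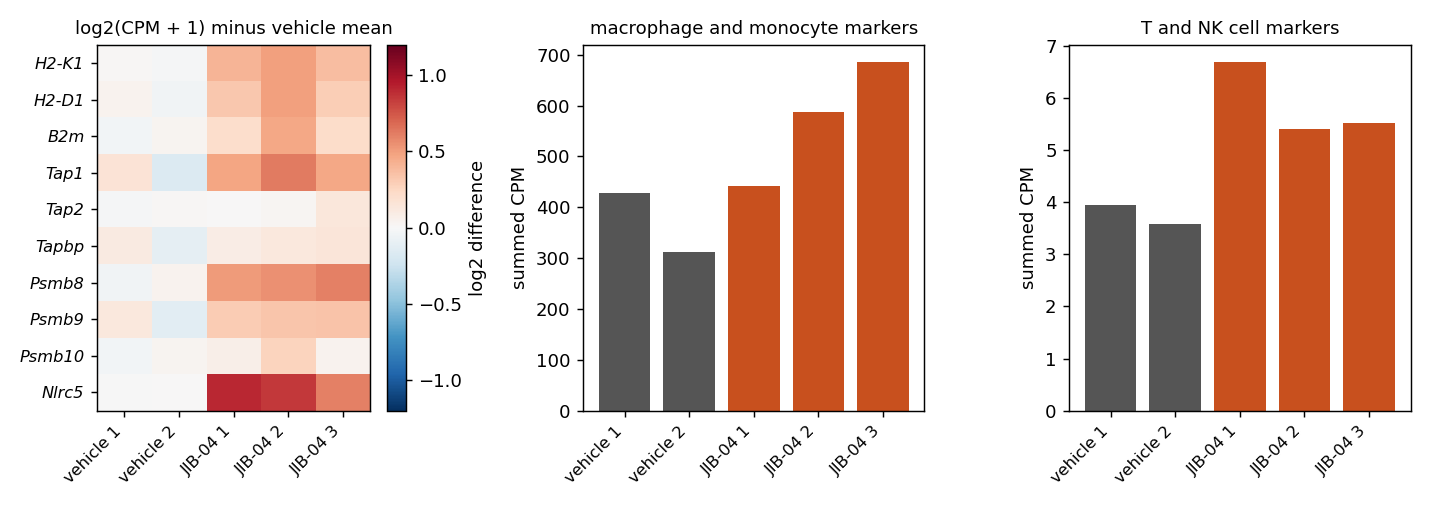
Left, log2(CPM + 1) minus the vehicle mean for the 10 genes in each library (colour scale in log2 units); middle and right, summed CPM of macrophage and monocyte markers and of T and NK cell markers per library (grey vehicle, orange JIB-04). Nlrc5 is highest in JIB-04 replicate 1, the macrophage sum is highest in replicate 3 at 686 CPM, and the T and NK cell sum is highest in replicate 1 at 6.69 CPM.

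Genes whose profile over the 5 libraries was nearest to the median profile of the set were looked for among 12326 other genes with a mean of at least 1 CPM, by the root mean square distance of centred log2(CPM + 1) values. The 8 nearest, at distances of 0.025 to 0.045 against a median of 0.216 for all these genes, were Ly6e, Pcdhb17, Pml, Pcdhb22, Enoph1, Tor2a, Zc3hav1 and Cd40. They were picked for a small distance, so their distances and their higher values under JIB-04 follow from the choice. Ly6e, an interferon induced surface protein, was at 134 and 120 CPM with vehicle, against 154, 171 and 159 CPM under JIB-04. Pml, which organises nuclear bodies, was at 15.6 and 14.7 against 18.6, 19.5 and 18.9 CPM. Pcdhb17 was at 4.62 and 4.30 against 5.70, 6.03 and 5.74 CPM, and Enoph1 at 7.63 and 6.64 against 8.61, 9.59 and 8.78 CPM. Within the set the distance ran from 0.026 for H2-D1 to 0.231 for Nlrc5, whose values were farther apart between groups than the median profile.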

How the data were processed

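Hearts were profiled by stranded mRNA sequencing (TruSeq, Trizol RNA, per the labels' protocols). Per the submitters' processing notes, which give no roles, the build was mm10 and the tools were edgeR, Subread, featureCounts, TopHat2 2.0.12, FastQC 0.11.2 and Picard 1.127; whether counting used strand is not given in the sources used here. The deposited CPM signal sums to 954981 to 1046902 per library, so the authors' scaling held a factor beyond depth. Every value (100%) was within 0.01 of a whole number of reads, and these reads were recovered. File starts count from 0 and are printed from 1.

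Genes were filtered with edgeR's filterByExpr (10 reads, 15 in total). The test was limma 3.58.1 (R 4.3.3) with a mean-variance trend on log2(CPM + 1), Benjamini-Hochberg over 14414 genes; log2 fold changes understate low genes. Alternatives were edgeR 4.0.16, limma-voom and DESeq2 1.42.0 on recovered reads, other scaling, pseudocounts and filters, a replicate block and leaving out each library. Fits were tested on simulated data with larger changes than those of the 10 genes, so that test does not cover changes of their size. The genes and lists were chosen with earlier results of these data known. Beyond the 10 genes, named genes are the 3 of each list with the smallest p, some fixed by name, and the 8 nearest profiles. Not each of these is described. The H2-Q genes, H2-M genes, Fcgrt, Mr1, Cd1d1, Hfe, Lyz2, Csf1r, Mrc1, C1qa, C1qc, Cd163, Mertk, Prf1 and Klrb1c were added after their values were seen. Promoters are from RefSeq. Intervals cover the spread between libraries.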

Additional observations from a re-analysis of the deposited data

How the results depend on the processing

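All 10 log2 fold changes kept their positive sign in every alternative run. The median over the 10 genes was 0.33 to 0.40 with other tools, scalings, pseudocounts and filters, and 0.32 to 0.43 when 1 library was left out, highest without vehicle replicate 1 (the lone vehicle library is then assumed to vary like the others). The count called stayed at 0 except with DESeq2, where it was 4; without JIB-04 replicate 1, where limma called 27 genes higher and 2 lower over all genes, it was also 0, with a smallest adjusted p among the 10 of 0.0602. The count of genes whose groups did not overlap was 8 to 10 when 1 library was left out. Leaving out a library can only keep or raise this count. The share of all genes was not computed for these runs. The Psmb9 to Psmb6 difference was 0.23 without vehicle replicate 2 and 0.65 without vehicle replicate 1. With the replicate number as a replicate block, which drops JIB-04 replicate 3, the median was 0.37 with 0 called. The deviations of same-numbered libraries from their group means had correlations of -0.133 and -0.135. With 2 vehicle libraries their deviations mirror each other, so these correlations are a weak guide to pairing. The numbers were not taken as pairs.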

Other observations

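Several genes of the Q region, which encodes non-classical class I chains such as Qa-2, split the JIB-04 libraries. H2-Q7 was at 6.37 and 7.23 CPM with vehicle, against 10.6, 10.6 and 6.45 CPM for the 3 JIB-04 libraries in order. H2-Q4 was at 24.9 and 26.8 CPM against 34.0, 36.4 and 24.3 CPM, H2-Q5 at 3.76 and 4.75 against 5.46, 7.15 and 3.75, and H2-Q6 at 2.53 and 3.65 against 5.46, 5.20 and 2.30. JIB-04 replicate 3 was thus within or below the vehicle range in all 4, while its H2-K1 and H2-T23 values were above both vehicle libraries. H2-Q10, with only 6 to 20 reads per library, went another way, at 0.242 and 0.228 CPM against 0.180, 0.536 and 0.483. There JIB-04 replicate 1 was below both vehicle libraries and replicate 3 above them. The rows of H2-Q9 and H2-Q8 repeat the values of H2-Q7 and H2-Q6 and cannot be told apart from them. These genes were picked out after their values were seen, and the difference between libraries was not tested.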
